A study of Rattus norvegicus with 120 samples.

Results

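The eyes compared here came from the 60 of 120 F2 rats whose RNA held the most or the least message for complement component C1q. C1qa and C1qc encode the A and C chains of C1q. For each gene the probe set of highest mean was taken, the mean of each S code (a number in the sample titles) was subtracted, the values were scaled to unit SD, and both were averaged into a C1q score. The animals were thus chosen by the measured levels of both genes. The 30 animals with the highest scores are called C1q-high, the 30 with the lowest C1q-low, and the remaining 60 middle. All were males 12 weeks old, bred by intercrossing SR/JrHsd with SHRSP, inbred lines of which the latter is hypertensive and prone to stroke. No animal was treated, the labels place all of them in 1 group, and high and low are set only by the ranking. Each array measured the RNA of both eyes of 1 rat, without replicate arrays, so the error behind each p-value mixes differences between rats with those of arrays. The animals' genotypes were not used here, and the titles carry a further L code with 22 values that the labels do not explain.

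C1q starts the classical complement pathway. It binds antibody complexes, dying cells and synapses, and the proteases C1r and C1s that travel with it then cleave C4 and C2, which leads to cleavage of C3. In most tissues C1q is made by macrophages, and in the retina by microglia, rather than by the liver, the source of most other complement proteins. The genes of its chains, C1qa, C1qb and C1qc, lie side by side. In a whole-eye sample, fewer cells of a type and less RNA per cell cannot be told apart.

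The promoters of the C1q genes are shown because the C1q chains moved together across animals. C1qa and C1qb were found in a RefSeq promoter table (GRCr8, 250 bases before to 50 after the start of the gene), and C1qc is named only. Both windows lie on the minus strand of chromosome 5, C1qa at chr5:154419884-154420183 and C1qb at chr5:154407778-154408077. Capitals mark GAGGAA, the core bound by the myeloid factor PU.1, searched on both strands.
C1qb: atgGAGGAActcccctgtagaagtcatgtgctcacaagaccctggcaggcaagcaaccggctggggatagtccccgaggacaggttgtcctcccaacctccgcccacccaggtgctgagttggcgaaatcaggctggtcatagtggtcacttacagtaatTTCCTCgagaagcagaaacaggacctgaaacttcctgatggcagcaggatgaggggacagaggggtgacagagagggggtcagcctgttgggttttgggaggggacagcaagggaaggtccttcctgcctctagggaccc
C1qa: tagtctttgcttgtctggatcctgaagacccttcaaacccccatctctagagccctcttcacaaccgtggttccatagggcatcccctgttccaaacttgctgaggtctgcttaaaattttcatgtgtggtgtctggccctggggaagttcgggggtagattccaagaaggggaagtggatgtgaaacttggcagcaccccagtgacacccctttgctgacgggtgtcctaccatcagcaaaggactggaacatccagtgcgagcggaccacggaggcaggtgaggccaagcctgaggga
C1qb held 2 matches, whose first bases lay at -247 and -90 from the start of the gene, the second on the opposite strand. C1qa held 0. Of all 27457 promoters of this length 27.54% held a match, as did 11 of the 16 tested pan-myeloid marker genes with a promoter in the table. A match is a string of letters and no measured site.

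C1qa spanned 7.47 to 8.70 on the deposited log2 scale over the 120 eyes, with a median of 8.03, and C1qc spanned 7.03 to 8.31 with a median of 7.62. From here on levels are log2 values after removal of S code means, put back at the gene's overall mean. C1qa was between 8.04 and 8.61 (median 8.21) in the C1q-high eyes and between 7.54 and 7.90 (median 7.77) in the C1q-low eyes. C1qc was between 7.59 and 8.17 (median 7.83) and between 7.19 and 7.56 (median 7.41). These values chose the groups and are a description only: C1qa was 1.40-fold and C1qc 1.37-fold higher in C1q-high. The ranking has no gap at its limits. The last C1q-low animal had a score of -0.69 and the first middle animal -0.68, while the last middle animal had 0.53 and the first C1q-high animal 0.55. The extremes were -2.19 (animal 63) and 2.75 (animal 84).

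C1qb, the gene of the B chain, was not used in the ranking and followed it. Its level was 7.01 to 7.66 (median 7.28) in the C1q-high eyes and 6.66 to 7.55 (median 6.92) in the C1q-low eyes. The ranges overlap, but 30 of 30 C1q-high eyes lay above the C1q-low median, and the C1q-high mean was higher in 10 of 10 S codes. The difference was 0.38 ± 0.0415 (SE, log2), or 1.30-fold, with an adjusted p of 7.56e-11 by limma with S code as covariate. The highest C1q-low value belonged to animal 63, the animal of lowest C1qa and C1qc score, whose array resembled the others least. Across the 120 animals, as a description of arrays that share their processing, Pearson's r was 0.80 for C1qa with C1qc, 0.70 for C1qa with C1qb and 0.67 for C1qb with C1qc.

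**Figure D1:**
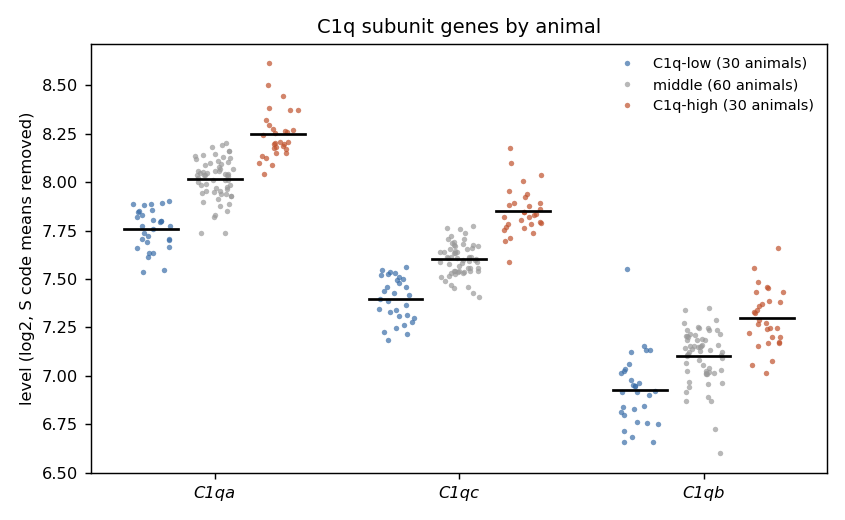
Level of the C1q chain genes in each eye sample (log2, S code means removed), by group, with black bars at the group means. C1qa and C1qc separate because they set the groups; C1qb, which did not, has group medians of 6.92 and 7.28 with overlapping ranges.

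C1q-high and C1q-low animals occurred in every S code, with 1 to 4 C1q-high and 2 to 5 C1q-low animals each. L codes were less even. Of the 22, 6 held C1q-high and no C1q-low animals, 5 the reverse, 10 both and 1 neither. All 4 animals of code L17 that fell outside the middle were C1q-high, as were all 4 of L20, and the mean score of L17 was 1.30. L13 and L15 had mean scores of -1.01 and -0.94, and L15 held 3 C1q-low and 0 C1q-high animals. The mean of L13 rests on 3 animals, with scores of -2.19 (animal 63), 0.23 and -1.05. The L code took up 33.75% of the variance of the score, against a mean of 18.99% when scores were permuted within S codes (100000 permutations, one-sided p = 0.00763).

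**Figure D2:**
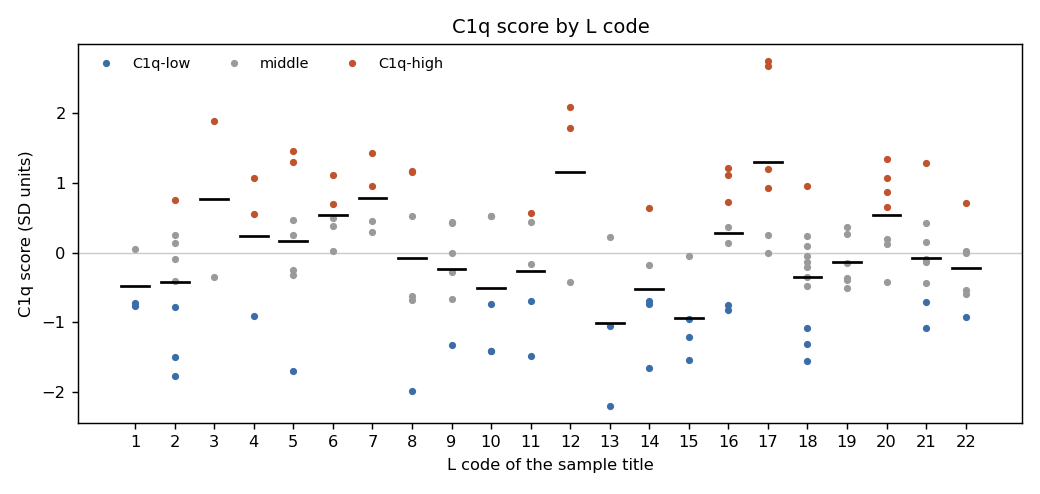
C1q score (SD units) of each animal by the L code of its title, with black bars at the code means and colours for the groups. L17 (6 animals) has the highest mean, 1.30, and L13 (3 animals, among them animal 63 at -2.19) the lowest, -1.01.

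Of 5 array and RNA measures 4 differed between the groups. The actin 3' minus 5' difference, larger in RNA that is shorter, averaged 1.18 ± 0.218 in C1q-high and 1.24 ± 0.253 in C1q-low eyes (SD, n = 30 each; within S codes a difference of -0.11, permutation p = 0.006, 0.015 adjusted over 5 measures). GAPDH gave -0.061 (permutation p = 0.0322, adjusted 0.0402). The median correlation of an array with the others averaged 0.989 in C1q-high and 0.985 in C1q-low (permutation p = 2e-05, adjusted 0.0001), and the 3 arrays with the lowest values, of animals 63, 15 and 9, were all C1q-low. Of the 3 arrays marked as scanned again, 2 were C1q-low, among them that of animal 63. The array median was higher by 0.018 in C1q-high (permutation p = 0.0205, adjusted 0.0342). The array's 75th percentile did not pass, with a difference of 0.018 (permutation p = 0.329). The part of these measures in the gene differences below was not tested beyond the fits named beside them. Genes of the eye were bright: the lens list had a median level of 13.50 and the rod list 11.53.

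Over 12324 genes, 1514 (12.3%) were higher and 334 (2.71%) lower in the C1q-high eyes at an adjusted p under 0.05. These shares are the background for the counts below from the fit with S code as the only covariate. Differences over genes ran from -0.42 to 0.61, with a median of 0.0018. Calls also depended on level: of 5 equal bins by mean level, 2.08% of probe sets in the lowest and 20.6% in the highest were higher. Over 23324 probe sets 2848 were higher (12.2%) and 679 lower (2.91%), so 80.7% of the calls were in the higher direction. That share was 57.2% after quantile normalization and 62.8% after subtraction of array medians. It was 56.01% without animal 63 and 54.1% without the rescanned arrays, since the lower calls then grew to 2242 and 2603. With the first 5 principal components of the probe sets as further covariates, 75 probe sets were higher and 95 lower. These components had absolute correlations of 0.15 to 0.40 with the C1q score itself, and the first one of 0.78 with the actin difference. Of genes, 56 were higher (0.454%) and 64 lower (0.519%) in that fit, and 41 and 12 of them were also called without the components. The shares of 0.454% and 0.519% are the background for every count with the components below, so a count of 0 in a short list is near them.

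The other complement genes followed C1q only in part. Of 44 genes on 6 complement lists, 28 were tested, 2 had set the ranking, 6 were below the level filter and 8 were not analysed here, among them C2, C4a, C4b and Cfb. Of the 28 tested genes, C1qb among them, 8 were higher (C1qb, C1r, Cfd, Fcna, Serping1, Clu, Lrp1, Calr), 0 lower and 20 did not pass. Of all genes 12.3% were higher. With the components 4 were called higher (C1qb, Cfd, Fcna and Serping1), where 0.454% of all genes were.

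Of the C1 proteases C1r passed and C1s did not. C1r, the protease that activates C1s, was 8.34 to 8.88 (median 8.66) in C1q-high and 8.09 to 8.67 (median 8.52) in C1q-low eyes, and 13 C1q-high eyes lay above every C1q-low eye. Its difference was 0.14 ± 0.0310 (SE; adjusted p = 0.000478), and 0.06 (adjusted p = 0.49) with the components. C1s, which cleaves C4 and C2, had a median of 9.70 in both groups and a difference of 0.05 ± 0.0386 (adjusted p = 0.438). The difference between the results of both genes was not tested.

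The inhibitor Serping1, the serpin that blocks C1r and C1s, stood out more. It was 9.39 to 9.83 (median 9.61) in the C1q-high and 9.024 to 9.61 (median 9.39) in the C1q-low eyes. The ranges overlap between 9.39 and 9.61, and 15 C1q-high eyes were above all C1q-low eyes. The gene was 1.16-fold higher (0.21 ± 0.0283, adjusted p = 5.98e-08) and remained called with the components (0.12, adjusted p = 0.0333). Clu, which encodes the inhibitor clusterin of the terminal complex, differed by 0.17 ± 0.0348 (adjusted p = 0.000271), and by 0.04 (adjusted p = 0.63) with the components. Cd55, Cd46 and Cd59b, inhibitors anchored in cell membranes, had differences of -0.13, -0.09 and 0.01 and did not pass.

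Fcna, a ficolin made by macrophages that starts the lectin pathway, was 6.41 to 7.29 (median 6.84) in C1q-high and 6.10 to 6.998 (median 6.48) in C1q-low eyes. The ranges overlap through most of their length, yet 28 C1q-high eyes were above the C1q-low median. It was 1.23-fold higher (0.30 ± 0.0591, adjusted p = 0.000143), and the difference was 0.40 (adjusted p = 2.66e-05) with the components. Cfd, the factor D protease of the alternative pathway, differed by 0.16 (adjusted p = 0.0471) and by 0.30 with the components (adjusted p = 0.00484), but did not pass with the L code as covariate (adjusted p = 0.075) or after quantile normalization (also 0.075). C3, on which all pathways converge, differed by 0.13 ± 0.0633 (adjusted p = 0.145), with 22 C1q-high eyes above the C1q-low median. Masp1, Masp2 and Cfp lay between -0.09 and -0.02 and did not pass.

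None of the 3 tested terminal genes, C6, C8g and C9, passed by limma, adjusted or not, with differences of -0.01 to 0.01 at levels near the filter. Among receptors, Lrp1 (0.14, adjusted p = 0.000591) and Calr (0.16, adjusted p = 0.000386), a scavenger receptor and the calreticulin that bridges it to C1q, were higher. Neither differed with the components (0.00 and 0.01), and both are made by many cell types. The anaphylatoxin receptors C3ar1 and C5ar1 and the integrin chain Itgam of complement receptor 3 had differences of -0.01, -0.03 and -0.00. C3ar1 and Itgam were dim, with mean levels of 4.44 and 4.69, and C5ar1 had 5.99.

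Myeloid markers were next. Of 23 tested pan-myeloid genes 7 were higher and 0 lower, 30.4% against 12.3% of all genes. Of the 23 differences 22 were above 0 (median 0.08, against 0.0018 for all genes). Other lists held larger and smaller shares, such as lysosome genes (42.1%), ribosomal proteins (38.5%, with a median difference of 0.0081) and endothelium (25%). Fcer1g, the signalling chain of Fc receptors, was 7.30 to 7.97 (median 7.64) in C1q-high and 6.95 to 7.83 (median 7.43) in C1q-low eyes, with 27 C1q-high eyes above the C1q-low median. It differed by 0.22 ± 0.0421 (adjusted p = 5.92e-05), and by 0.24 with the components (adjusted p = 1.25e-05). Ctss, the lysosomal protease cathepsin S, differed by 0.18 (adjusted p = 0.000138) and Lyz2, the macrophage lysozyme, by 0.15 (adjusted p = 0.00378). With the components these were 0.19 (adjusted p = 0.0019) and 0.21 (adjusted p = 0.003). Fcer1g, Ctss and Lyz2 were the 3 list members called in that fit, where 0.454% of all genes were higher. With the actin and GAPDH differences as covariates 11 of the 23 were higher and 0 lower, where 10.7% of all genes were higher.

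Cyba, the p22 subunit of the phagocyte oxidase, was 7.52 to 7.86 (median 7.71) in C1q-high and 7.09 to 7.73 (median 7.46) in C1q-low eyes, and 30 of 30 C1q-high eyes exceeded the C1q-low median. Its difference of 0.25 ± 0.0363 (adjusted p = 2.97e-07) was 0.08 with the components (adjusted p = 0.2). Laptm5 (0.15), Cybb (0.29) and Rac2 (0.13) also passed, and did not with the components. Some widely used markers did not pass in either of these fits: Aif1 had a difference of 0.11, Cd68 0.03, Csf1r 0.08 and Ptprc, the leukocyte antigen CD45, 0.01. Csf1r came close by limma, at 0.08 ± 0.0341 (SE; adjusted p = 0.0806) and 0.13 with the components (adjusted p = 0.0571). Ptprc was dim, with a mean level of 4.85 against a filter at 4.28. The summed level of the list was 11.78 to 12.17 in C1q-high and 11.72 to 12.07 in C1q-low eyes.

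Tissue macrophage and microglia markers gave different counts. Of 16 tested tissue macrophage genes only Folr2, a folate receptor, passed (6.3% against 12.3%), at 0.15 ± 0.0354 (adjusted p = 0.00191), with C1q-high eyes at 6.44 to 7.04 (median 6.70) and C1q-low eyes at 6.16 to 6.91 (median 6.501). With the components 4 of the 16 passed, where 0.454% of all genes were higher, and the median of the list was 0.13. They were Folr2 (0.20), the haemoglobin scavenger receptor Cd163 (0.28), the mannose receptor Mrc1 (0.32) and the lectin Clec10a (0.21). With the actin and GAPDH differences as covariates 4 were higher and 0 lower, where 10.7% of all genes were higher. Of 10 microglia genes 0 passed in either fit (limma; 2 had an unadjusted p under 0.05 with S code as covariate), and their median was 0.0061. These genes were dim, with a median level of 4.99 against a filter at 4.28. Tmem119 had a difference of 0.11 (adjusted p = 0.122), P2ry12 of -0.09 (adjusted p = 0.489) and Trem2 of -0.07 (adjusted p = 0.317). A further list, of activated microglia genes, had 5 of 16 higher (31.3% against 12.3%, median 0.06) and 0 with the components. Its called genes were Apoe, Axl, Cd63, Ctsd and Gpnmb, of which Cd63 and Ctsd are also on the lysosome list. Whether microglia and macrophage lists differ from each other was not tested.

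**Figure D3:**
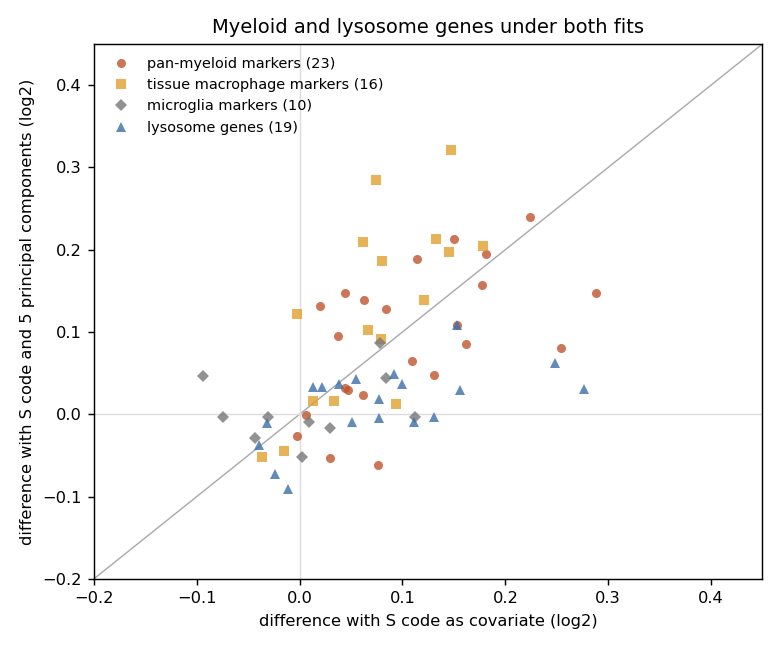
High minus low difference (log2) of each tested member of 4 lists, with S code as covariate (horizontal) and with 5 principal components added (vertical); the grey diagonal marks equal values. Tissue macrophage genes had a median of 0.08 and then 0.13, lysosome genes of 0.08 and then 0.03.

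Of 11 Fc receptor and phagocytosis genes 4 were higher. Fcgr3a, a low affinity IgG receptor, differed by 0.22 (adjusted p = 0.00885; 0.31, adjusted p = 0.028 with the components), Cd36, a scavenger receptor, by 0.27 (adjusted p = 0.00292) and Axl, a receptor for dying cells, by 0.11 (adjusted p = 0.00369), beside Fcer1g. Cd36 and Axl did not pass with the components, at 0.21 (adjusted p = 0.18) and 0.05 (adjusted p = 0.46). Lysosome genes were higher in 8 of 19. Psap, the precursor of the saposins, was 11.01 to 11.33 (median 11.10) in C1q-high and 10.17 to 11.15 (median 10.97) in C1q-low eyes, a difference of 0.25 ± 0.0427 (adjusted p = 1.4e-05). Ctsd, the protease cathepsin D, differed by 0.28 ± 0.0515 (adjusted p = 5.2e-05) and Ctsa by 0.16 (adjusted p = 1.32e-05). None of the 19 passed with the components, where 0.454% of all genes were higher. Psap was then at 0.06 and Ctsd at 0.03. Lysosome genes are expressed by most cells of the eye.

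Among colony stimulating and chemotactic factors 4 of 15 were higher and 1 lower. Il34, a ligand of the CSF1 receptor, differed by 0.13 (adjusted p = 0.00405), Cx3cl1, the fractalkine of neurons, by 0.11 (adjusted p = 0.00793), and Tgfb1 by 0.18 (adjusted p = 0.00948). With the components none of these 3 passed, at 0.09, 0.03 and 0.0055 (adjusted p = 0.28, 0.79 and 0.98). Cxcl13, a chemokine that attracts B cells, differed by 0.32 ± 0.0924 (adjusted p = 0.0107; 0.39, adjusted p = 0.042 with the components) and did not pass with the L code (adjusted p = 0.23). Cxcl12 was lower by 0.11, that is -0.11 ± 0.0379 (adjusted p = 0.0376), and by -0.06 with the components (adjusted p = 0.57). Of 10 myeloid transcription factors only Irf8 passed, at 0.18 (adjusted p = 0.00524; 0.03, adjusted p = 0.88 with the components). Lymphocyte genes (0 of 6, with 11 others below the filter) and neutrophil and mast cell genes (0 of 7) gave no call by limma, and 2 and 0 of them had an unadjusted p under 0.05.

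**Figure D4:**
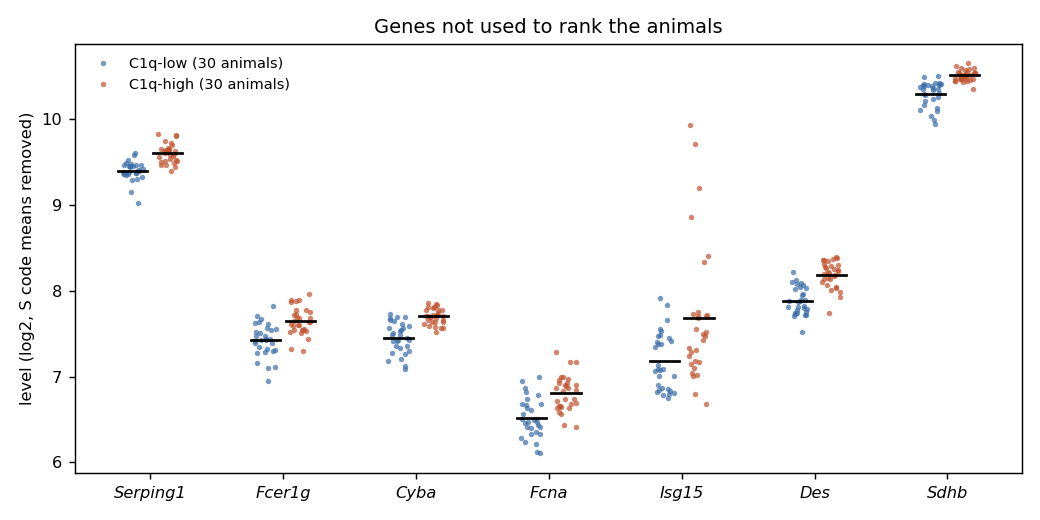
Level in each C1q-low and C1q-high eye (log2, S code means removed) of 7 genes that did not set the groups; black bars are group means. The groups overlap for every gene, and 6 C1q-high eyes lie above every C1q-low eye in Isg15.

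The next lists hold genes of antigen presentation. Of 8 tested MHC class II genes 5 were higher and 3 did not pass (list median 0.14). Among those 3 were RT1-Ba at -0.02 ± 0.046 (SE) and RT1-Bb at -0.02 ± 0.385. The SE of RT1-Bb is too large to tell a difference of the size of the list median from 0. RT1-DMb, a peptide loading chain, was 6.64 to 7.03 (median 6.77) in C1q-high and 6.38 to 6.78 (median 6.63) in C1q-low eyes, a difference of 0.19 ± 0.0335 (adjusted p = 2.88e-05). The invariant chain Cd74 differed by 0.17 ± 0.0360 (adjusted p = 0.000512). Of 10 class I genes 6 were higher and 4 did not pass (median 0.15), led by the immunoproteasome subunit Psmb9 at 0.23 (adjusted p = 0.000836), and B2m, the light chain, differed by 0.12 (adjusted p = 0.0272). With the L code as covariate, where 12.4% of all genes were higher, 5.47% lower and 17.9% either, 3 class II and 2 class I genes were called. Of either list 0 were called with the components, where 0.454% of all genes were higher. After quantile normalization, where 9.43% of genes were higher, 4 class II and 2 class I genes were. RT1 genes are near-identical copies, so which copy a probe set reads is uncertain.

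The largest differences between the groups were those of genes induced by interferon. Among the 10 genes of largest difference that passed, 8 were of this kind by common knowledge: Mx1 (0.61), Ifi27l2b (0.56), Usp18 (0.54), Rtp4 (0.53), Isg15 (0.51), Oas1a (0.46), Irf7 (0.46) and Bst2 (0.44). Of 15 tested interferon response genes 8 were higher, 0 lower, with a median of 0.34. Isg15, a ubiquitin-like protein, was 6.68 to 9.94 (median 7.48) in C1q-high, 6.75 to 7.92 (median 7.09) in C1q-low and 6.40 to 9.31 (median 7.39) in middle eyes. The difference of 0.51 ± 0.141 (1.42-fold, adjusted p = 0.00719) thus combined a shift of the median with 6 C1q-high eyes above every C1q-low eye. Those 6 were of L codes 17 (3 animals), 3, 12 and 20, and animal 84, the highest in C1q score, was also the highest in Isg15 at 9.94. In the middle group 3 eyes were above every C1q-low eye. The other two of the 10 genes were the transcription factor Tcf4 (0.49) and the ubiquitin ligase Ube3a (0.45), whose differences were 0.04 and -0.00046 with the components.

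Irf7, the factor that amplifies interferon production, was 8.01 to 10.36 (median 8.45) in C1q-high and 7.64 to 8.68 (median 8.20) in C1q-low eyes (0.46 ± 0.103, adjusted p = 0.000701). Usp18, which removes Isg15 from proteins, differed by 0.54 ± 0.122 (adjusted p = 0.000742). With the L code as covariate 3 of the 15 interferon genes were called and with the components 0, although the median was still 0.18 and 0.22. With the actin and GAPDH differences as covariates 12 were called, against 10.7% of all genes. The promoter of Irf7 (minus strand, chr1:205799974-205800273) is shown because it holds, in capitals, the interferon response motif, GAAA and GAAA spaced by any 2 bases, here on the opposite strand with its first base at -69.
Irf7: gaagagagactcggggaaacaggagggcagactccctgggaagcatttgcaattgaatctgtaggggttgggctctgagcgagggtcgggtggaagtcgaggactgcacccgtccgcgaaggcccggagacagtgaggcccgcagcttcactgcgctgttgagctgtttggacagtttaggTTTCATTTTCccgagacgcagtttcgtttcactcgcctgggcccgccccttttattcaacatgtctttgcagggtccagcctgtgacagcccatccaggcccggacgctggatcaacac
Of all promoters of this length 3.766% held this motif on either strand, and so did 7 of the 11 tested interferon genes found there. Isg15 and Usp18 are named only.

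Skeletal muscle genes, such as the muscles that move the eye express, had the most calls of the 40 lists, and the most tested genes. Of the 27 muscle genes, all tested, 15 were higher and 0 lower (55.6% against 12.3%), with a median of 0.15. The share was larger for MHC class II (62.5% of 8), MHC class I (60% of 10) and C1q subunits (100% of 1). The muscle genes were also bright, with a median level of 9.93. Of probe sets in the highest of 5 equal bins by mean level, 20.6% were higher. Ckm, the muscle creatine kinase, was 11.09 to 11.74 (median 11.45) in C1q-high and 10.27 to 11.41 (median 11.07) in C1q-low eyes. Of the C1q-high eyes 17 were above every C1q-low eye (0.35 ± 0.0524, 1.28-fold, adjusted p = 7.66e-07). Des, the intermediate filament desmin, was 7.74 to 8.39 (median 8.21) against 7.52 to 8.22 (median 7.87), a difference of 0.31 ± 0.0435 (adjusted p = 1.97e-07). Atp2a1 (0.26), Acta1 (0.20) and Tnnt3 (0.22) were also higher, while the myosin heavy chains Myh1, Myh2, Myh4, Myh7 and Myh13 lay between -0.10 and 0.06 and did not pass. The summed level of the list was 14.85 to 15.33 in C1q-high and 14.52 to 15.17 in C1q-low eyes. With the components only Des passed (0.19, adjusted p = 0.0419), with a list median of 0.14, and with the L code 9 genes were higher and 1 lower. The part of muscle content in the other differences was not tested, except that with the mean scores of the muscle, gland, cornea and melanin lists as covariates 3311 probe sets were higher and 2552 lower.

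**Figure D5:**
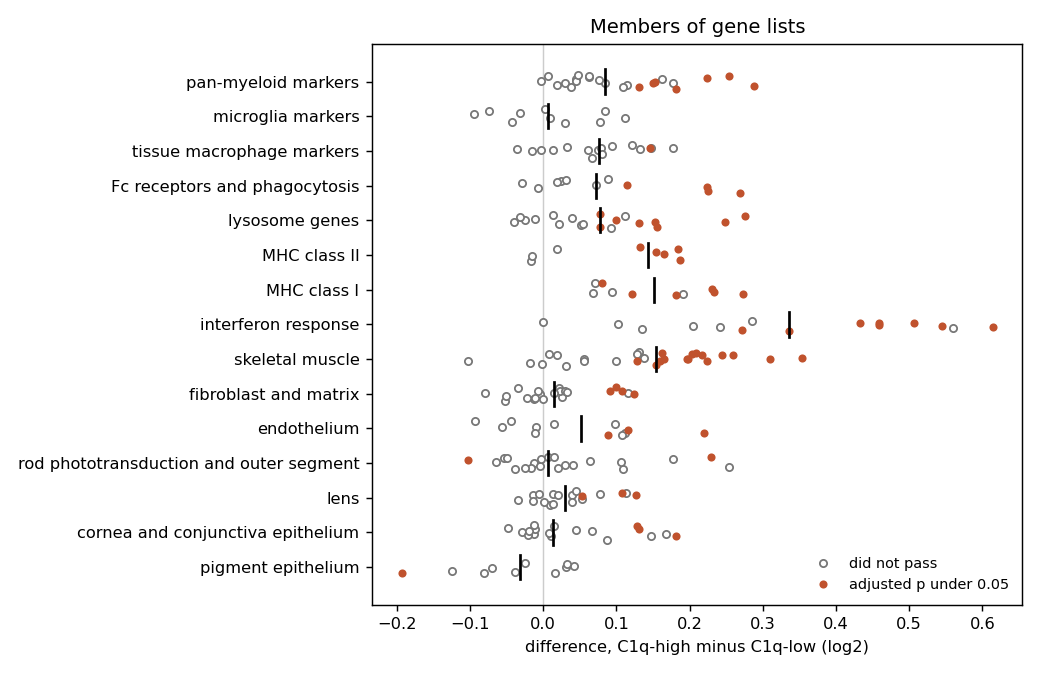
High minus low difference (log2) of each tested member of 15 gene lists, filled where the adjusted p was under 0.05, with black bars at list medians. Interferon response genes have the largest median, 0.34, and pigment epithelium genes a median of -0.03.

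After C1qb the gene of smallest p was Sdhb, and 5 of the 15 genes of smallest p encode proteins of mitochondria. No list was fixed for such genes and their share among all genes tested was not counted, so nothing can be set beside this count. Sdhb, the iron-sulphur subunit of succinate dehydrogenase, was 10.36 to 10.65 (median 10.51) in C1q-high and 9.94 to 10.50 (median 10.35) in C1q-low eyes, and 17 C1q-high eyes were above every C1q-low eye. Its difference was 0.22 ± 0.0273 (adjusted p = 1.22e-08), and 0.10 with the components (adjusted p = 0.00327). Ndufs7 of complex I (0.18), Cyc1 of complex III (0.17), the ADP/ATP carrier Slc25a4 (0.19) and the fission protein Fis1 (0.22) had adjusted p-values of 1.3e-08 to 2.66e-07. Ndufs7 and Slc25a4 passed with the components, Cyc1 and Fis1 did not (adjusted p = 0.066 and 0.064). The other genes among the first 15 were B3gat3, an enzyme of glycosaminoglycan linkers (0.25), Dgat1, which makes triglycerides (0.26), Crip2 (0.21), Creld1 (0.21), Tagln2 (0.28) and Lrrc41 (0.22), beside Serping1, Des and Cyba. Each of these 15 was higher in at least 9 of 10 S codes. They were picked by their p in this same contrast of the same animals, so that count is a description only. S code 7 held 1 C1q-high animal. The self-test used simulated arrays whose noise was independent between probe sets, unlike that of the real arrays. In that self-test 72% of probe sets given a difference of 0.2 and 14% of those given 0.1 were called.

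Genes lower in the C1q-high eyes were fewer and depended on 1 array. Without animal 63 the gene count was 1352 (11% of genes) in place of 334. Tfap2a, a transcription factor of lens, cornea and neural crest, had the smallest p: C1q-high eyes were at 6.75 to 7.10 (median 6.93), C1q-low eyes at 6.83 to 7.81 (median 7.07). It was lower by 0.18, a difference of -0.18 ± 0.0351 (adjusted p = 9.48e-05), with 1 C1q-high eye above the C1q-low median, and -0.16 with the components (adjusted p = 0.0141). Adck2, a kinase-like mitochondrial protein, differed by -0.15 (adjusted p = 0.000307) and by -0.14 with the components (adjusted p = 0.018). Lix1l (-0.20), Dock3 (-0.20), Cep152 (-0.24), Sipa1l3 (-0.20), Iqgap2 (-0.15), B3glct (-0.15), Stau2 (-0.16), Ccdc30 (-0.27), Plxna2 (-0.18), Nuf2 (-0.15), Trpc2 (-0.17) and LOC100911506 (-0.22) had adjusted p-values of 0.000249 to 0.0023, and none of these 12 passed with the components. Eogt, which adds N-acetylglucosamine to extracellular proteins, did (-0.21, then -0.14).

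Lists for other tissues of the eye gave few calls. In the rod list 1 of 21 genes was higher and 1 lower: the photoreceptor factor Crx differed by 0.23 ± 0.0745 (adjusted p = 0.024) and the rod channel Cnga1 by -0.10 ± 0.0274 (adjusted p = 0.00512). No cone gene passed by limma (0 of 9, 2 at an unadjusted p under 0.05), and the cone arrestin Arr3 had a difference of -0.23 (adjusted p = 0.0701). Of 12 ganglion cell genes 3 were higher, Sncg (0.14, adjusted p = 0.000159), Uchl1 (0.11) and Thy1 (0.12), and Opn4, the melanopsin of light-sensing ganglion cells, was lower (-0.36 ± 0.106, adjusted p = 0.0116; -0.01 with the components). In the inner retina list Pcp2 of bipolar cells (0.17) and Calb2 (0.11) were higher and Gad1, which makes GABA, was lower (-0.14, and 0.03 with the components). Pigment epithelium had 1 lower gene of 10, Trpm3 (-0.19, adjusted p = 0.0162), while Rpe65 had -0.08 and did not pass, and melanin genes gave 0 calls of 8 by limma (1 at an unadjusted p under 0.05). Of 18 lens genes Bfsp2 (0.11), Lim2 (0.13) and Crybb3 (0.05) were higher. Of 18 cornea and conjunctiva genes the keratins Krt13 (0.13), Krt19 (0.18) and Krt4 (0.13) were higher. With the components none was, Krt13 and Krt4 lay below 0 (-0.050 and -0.033), Krt19 was at 0.17 (adjusted p = 0.33), and the desmosome protein Dsp was the 1 lower gene of the list. Endothelial genes gave 3 of 12: Eng, a TGF-beta co-receptor, was 6.17 to 6.66 (median 6.40) against 5.80 to 6.39 (median 6.26), with 17 C1q-high eyes above every C1q-low eye (0.22 ± 0.0394, adjusted p = 2.8e-05), beside Cldn5 and Esam. Apoe, a lipid carrier of Mueller glia and macrophages, differed by 0.17 (adjusted p = 5.69e-05), and by 0.05 with the components (adjusted p = 0.44). Sncg (0.13, adjusted p = 0.0148) and Pcp2 (0.18, adjusted p = 0.0267) remained called with the components, as the only called genes of their lists. The rod, pigment epithelium, lens and endothelium lists then gave 0 calls, with Crx at 0.11, Cnga1 at -0.02, Trpm3 at -0.06 and Eng at 0.08. Counts on these lists of 1 or 2 in 10 are near the background.

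The neighbours of the C1q genes were called about as often as other genes. In the RefSeq order C1qb, C1qc and C1qa are adjacent on chromosome 5. Of the 25 tested genes on each side 9 were higher and 0 lower, 18% against 15% of all genes called in either direction and 12.3% called higher, and their median difference was 0.0062. The 9 were Lypla2, Rpl11, Id3, Wnt4, Ece1, Ddost, Pink1, Nbl1 and Capzb. The nearest genes on either side, Kdm1a and Zbtb40, had differences of -0.0072 and -0.02 and did not pass. Nbl1 was 1.16-fold higher (0.22, adjusted p = 2.03e-05) and Id3, a repressor of transcription, 1.21-fold (0.27, adjusted p = 0.000698). None of the 50 was called with the components, where 0.454% of all genes were higher and 0.519% lower, so 0 is near the background.

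The 60 middle animals entered the contrast through its estimates of the spread and of the S code means, and were also examined on their own. Along the C1q score within this group 0 of 23324 probe sets passed by limma, with a smallest adjusted p of 0.78, and 1356 (5.81%) had an unadjusted p under 0.05. C1qb had the smallest p of all (slope 0.22 per SD unit, unadjusted p = 4.7e-05 by limma). Of the 3527 probe sets called between C1q-high and C1q-low, 80.6% had a middle slope of the same sign, against 61.5% of the others, and 358 had the same sign with an unadjusted p under 0.05 against 10 with the opposite one. Serping1 had a slope of 0.00, Fcna of 0.16, Sdhb of 0.08 and Isg15 of -0.11, none of which passed. The same-sign shares describe probe sets that vary together and carry no test.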

How the data were processed

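Deposited values were log2 expression levels made by RMA (robust multi-array averaging), per the submitters' processing notes, with no version given; the annotation and build behind them are not given in the sources used here. RMA brings array distributions closer, which can hide a shift common to most genes, and a probe that binds 1 strain's transcript poorly can look like a difference. Array medians were 5.78 to 5.96. Precision is limited by the number of arrays.

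Of 31099 probe sets 57 were controls, 20826 had 1 gene symbol, 436 several (not named) and 9780 none. Symbols came from the platform annotation, updated through RefSeq (GRCr8), where 20758 were found. Probe sets whose mean reached 4.28, the 25th percentile of the table, were tested. A gene was represented by its probe set of highest mean. The 40 lists held 619 memberships, of which 476 were tested, 55 were too dim, 86 had no probe set with their symbol alone and 2 set the ranking.

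C1q-high, middle and C1q-low were levels of 1 factor in limma 3.58.1 (R 4.3.3) over all 120 arrays, with the S code as covariate, Benjamini-Hochberg adjustment over 23324 probe sets and a threshold of 0.05. Quality measures and the L code were tested by 100000 permutations within S codes. Named genes were the complement lists, up to 6 members of smallest p per other list, the 15 of smallest p in each direction, the 10 of largest difference that passed, and called neighbours within 25 genes; other list members named in the text, and genes called with the principal components, were chosen after their values were seen. Members, lists and tests were chosen with earlier results of these data known. In simulated data, 96% of probe sets given a difference of 0.4 were called, with 10 false calls among 23324. The simulated noise was drawn independently for each probe set. The real arrays share components, the first with 22.4% of the variance, so these counts do not carry over to them. The array of animal 63 was left out as an alternative added after seeing the data.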

Additional observations from a re-analysis of the deposited data

How the results depend on the processing

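Counts in this part are of probe sets. The higher count of 2848 became 75 with 5 principal components as covariates, 454 with no covariate, 1288 when animals were ranked by C1qc alone, 1583 at an adjusted p of 0.01, and 1614 to 3024 when each S code was left out. The lower count of 679 became 95 with the components, 20 with no covariate, 82 for C1qc alone, 129 at 0.01, 212 with the actin and GAPDH differences and 377 with only the 60 arrays. It rose to 1339 for 20 against 20 animals, 1172 with the L code, 2552 with the tissue scores, 1251 with array medians subtracted, 1674 with quantile normalization, 1074 with a slope over all animals, 2242 without animal 63, 1762 without animals 63 and 15 and 2603 without the rescanned arrays, and was 153 to 1117 when each S code was left out. The array median difference was 0.012 for 40 against 40 animals (permutation p = 0.0447, adjusted 0.0558). The L code share of the score was 32.68% without the rescanned arrays and 35.49% without removal of S code means. In the middle animals the count was 0 by limma under all 3 alternatives run. The percent of neighbours called was 19 for 100 genes on each side and 22 with the L code. Of 127 named genes that passed, 23 did so with the components, 54 with no covariate, 98 with the L code and 98 with the actin and GAPDH differences, and 6 were lost without animal 63. With the components 8 changed sign: Gad1 (0.032), Krt13 (-0.050), Krt4 (-0.033), Aqp5 (-0.025), Ube3a (-0.00046), Lypla2 (-0.028), Wnt4 (-0.050) and Capzb (-0.0046). The causes were not tested. No paired analysis was possible because the labels put all animals in 1 group. They give no replicate number that matches a C1q-high to a C1q-low animal. The S code, each value of which held both groups, was the covariate of the contrast. The L code entered only an alternative fit, and 10 of its 22 values held both groups.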

Other observations

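Genes that passed when the 5 principal components were covariates were different in part from those of the contrast without them: of 64 lower genes 12 had been called before. Several encode enzymes that make or carry cholesterol. Hsd17b7 was lower by 0.28 (a difference of -0.28, adjusted p = 0.00035 by limma), Stard4 had -0.21, Lss -0.18, Cyp51 -0.16 and Nsdhl -0.15, while without the components Cyp51 had 0.0077, Nsdhl -0.02 and Lss -0.02. Hsd17b7 (-0.20, adjusted p = 0.0217) and Stard4 (-0.12, adjusted p = 0.0498) had been called lower without them. Other lower genes in this fit were the protease inhibitor Spink5 (-0.23), the desmosome proteins Dsc2 (-0.20), Pkp3 (-0.16), Ppl (-0.13) and Dsp (-0.11), Scel (-0.14) and the keratin Krt6c (-0.15). None of these 7 passed without the components, where Spink5 had 0.0099 and Dsp -0.01. On the cornea and conjunctiva list Dsp was the 1 lower gene of 18. These genes were named after their values were seen and no list of them was tested.

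Among the 56 higher genes in the same fit were the muscle forms of cytochrome oxidase subunits, Cox6a2 (0.24, adjusted p = 0.0137) and Cox8b (0.24, adjusted p = 0.0424), the complex I subunits Ndufs3 (0.10) and Ndufb8 (0.12), and Slc28a2, a nucleoside transporter, at 0.35 (adjusted p = 0.00407). Xdh, which makes uric acid, had 0.27 (adjusted p = 0.00192), and 0.18 without the components (adjusted p = 0.0263).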
